A study of Mus musculus with 20 samples.

Results

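The mitochondrial genome of the mouse was followed through its transcripts in liver RNA. Members were every gene of the expression table whose symbol begins with mt-, and all of them lay on the mitochondrial chromosome. They were 37 of the 38924 genes in the table, of which 13 were protein-coding, 2 coded for ribosomal RNA (rRNA) and 22 for transfer RNA (tRNA). Livers came from 20 male mice, 5 per group, bought at 5 weeks of age, acclimated for 1 week and then fed for 12 weeks. WT mice were C57BL/6J per the study's methods and received control diet (NDWT) or a high fat diet that is defined in L-amino acids and deficient in choline, CDAHFD (HFWT), which is a model of steatohepatitis with fibrosis. The labels give the strain of both genotypes as C57/BL6. Mice of a purchased TSP-1 knockout line, which the study describes as on the C57BL/6J background and in which the thrombospondin 1 gene Thbs1 is disrupted in the germ line, received control diet (NDKO) or CDAHFD (HFKO) and are called null mice here. Whether any of the mice were littermates is not given in the sources used here. Each library was made from the liver of 1 mouse after oligo(dT) selection, and levels are FPKM, the fragments per kilobase of gene, scaled to the total of fragments assigned to genes.

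The mitochondrial genome is a small circle that is transcribed from both strands as long precursor RNAs. Most of its protein-coding and rRNA genes are separated by tRNA genes, and excision of the tRNAs sets free the neighbouring mRNAs and rRNAs. The mRNAs code for core subunits of complexes I, III and IV of the respiratory chain and of ATP synthase, the rRNAs build the mitochondrial ribosome, and the tRNAs read the mitochondrial code. Mitochondrial mRNAs and rRNAs mostly carry short poly(A) tails, whereas mature tRNAs carry none. Hepatocytes hold many mitochondria, where fatty acids are oxidized.

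Of the tRNA genes, 4 were lower on CDAHFD in both genotypes and all of them lie on the minus strand of the reference. They are mt-Tn, mt-Tc and mt-Ty, a row of adjacent tRNA genes next to the light strand origin of replication, and mt-Te, which lies between mt-Nd6 and mt-Cytb. Their sequences are shown because the diet results turn on them, and those of mt-Tg and mt-Tr because the genotype results do. Capitals mark the anticodon, found as the expected triplet in a loop closed by a stem of 5 base pairs. All are GENCODE M21 transcripts on GRCm38, chromosome M, written 5′ to 3′ on the strand of the gene.
mt-Tn (asparagine, 5089 to 5159, minus strand): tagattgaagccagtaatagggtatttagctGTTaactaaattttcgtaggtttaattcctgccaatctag
mt-Tc (cysteine, 5192 to 5257, minus strand): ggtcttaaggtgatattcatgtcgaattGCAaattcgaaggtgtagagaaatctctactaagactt
mt-Ty (tyrosine, 5260 to 5326, minus strand): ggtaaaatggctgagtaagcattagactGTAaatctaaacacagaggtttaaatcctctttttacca
mt-Te (glutamate, 14071 to 14139, minus strand): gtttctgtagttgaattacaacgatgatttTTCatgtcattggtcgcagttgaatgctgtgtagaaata
mt-Tg (glycine, 9391 to 9458, plus strand): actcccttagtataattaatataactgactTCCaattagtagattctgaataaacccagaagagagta
mt-Tr (arginine, 9808 to 9875, plus strand): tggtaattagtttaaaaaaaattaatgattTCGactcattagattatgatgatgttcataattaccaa

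Libraries held 15641545 to 23276322 assigned fragments, and at least 5449 fragments stood behind each value of the rRNA genes and of the 7 most abundant mRNA genes. Floors of 3 fragments here cover counting error only, whereas SD and SE values rest on the spread between libraries. HFWT replicate 5 stood apart from the other libraries. The summed level of 12 RNAs that lack a poly(A) tail, such as Rn7sk, was 214755 FPKM in that library. In the other 19 it was 5618 to 46875 FPKM. Of these RNAs, Rny1, Rny3 and Snora73b were at 0 in every library, and Rmrp in every NDKO library. For the genes whose results HFWT replicate 5 moved most, values without it are given as well. Thbs1 ran against the labels on the control diet. It was at 0.197 ± 0.103 FPKM in NDWT, 4.62 ± 1.22 in HFWT, 1.30 ± 0.390 in NDKO and 3.44 ± 0.547 in HFKO (SD, n = 5), and genotypes are therefore given as the libraries were labelled. Hepatocyte markers were high in every library, with summed levels of 8 markers of 33676 to 41118 FPKM in NDWT, 25549 to 37094 in HFWT, 37580 to 44761 in NDKO and 33801 to 44836 in HFKO. None of the markers of hepatocytes, macrophages, stellate cells, lymphocytes or cholangiocytes was at 0 throughout a group.

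The mitochondrial protein-coding genes formed separate level classes, 7 genes with means of at least 1609 FPKM and 6 adjacent genes with means up to 19.8 FPKM. Over the 20 libraries mt-Co1, the catalytic subunit of complex IV, averaged 7578 FPKM. The mean of mt-Cytb, the cytochrome b of complex III, was 5292 FPKM. The complex I subunits mt-Nd2 and mt-Nd1 averaged 3457 and 3370 FPKM. The order of these neighbours depended on the diet. On control diet mt-Nd2 was at 4436 ± 556 FPKM in NDWT and mt-Nd1 at 3764 ± 486, and on CDAHFD mt-Nd2 was at 2767 ± 595 in HFWT and mt-Nd1 at 3086 ± 474 (SD, n = 5). Within libraries, mt-Nd2 was above mt-Nd1 in all 10 on control diet, by 188 to 1010 FPKM, and below it in all 10 on CDAHFD, by a difference of −465 to −19.9 FPKM. The means of mt-Nd5, mt-Nd4 and mt-Nd6 were 1947, 1665 and 1609 FPKM. In NDWT mt-Nd4 (2087 ± 377) lay above mt-Nd6 (1779 ± 305) and in NDKO (1747 ± 341) below it (2003 ± 404). On CDAHFD mt-Nd4 lay above mt-Nd6 in both genotypes, at 1454 ± 265 against 1385 ± 441 in HFWT and 1372 ± 241 against 1269 ± 184 in HFKO. The rRNA genes mt-Rnr2 and mt-Rnr1, the large and small subunit rRNAs, averaged 1054 and 864 FPKM.

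The remaining 6 protein-coding genes lie next to each other, from mt-Co2 to mt-Nd4l, and averaged 5.42 to 19.8 FPKM, with single libraries between 1.09 and 40.2 FPKM. They are mt-Co2 and mt-Co3 of complex IV, mt-Atp8 and mt-Atp6 of ATP synthase, and mt-Nd3 and mt-Nd4l of complex I. The 7 genes outside this stretch held 99.8% to 99.9% of the mitochondrial mRNA fragments of each library, and the 6 genes inside it held 0.110% to 0.203%. In the GENCODE M21 transcripts, 7 nuclear gene models between 24611535 and 24616197 on the minus strand of chromosome 1 repeat the mitochondrial sequence from mt-Co1 to mt-Nd4. Of the 31-base words of mt-Co2, mt-Atp6, mt-Co3, mt-Nd3 and mt-Nd4l, 98.1% to 100% also occurred in nuclear transcripts. That share was 63.9% for mt-Co1, 62.8% for mt-Nd4 and between 0% and 16.8% for the other 5 highly measured genes. For mt-Atp8 it was 7.47%, but 233 bases without a gene model lie between Gm10925, the copy of mt-Atp6, and Gm28661, the copy of mt-Co2, and no genome sequence was used here to read them. How reads that match more than 1 place were counted is not given in the sources used here, so the levels of these 6 genes are uncertain, and the part of the shared sequence in them was not tested. The same holds in part for mt-Co1 and mt-Nd4, and so for the sums, shares and orders of genes that include them.

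**Figure D1:**
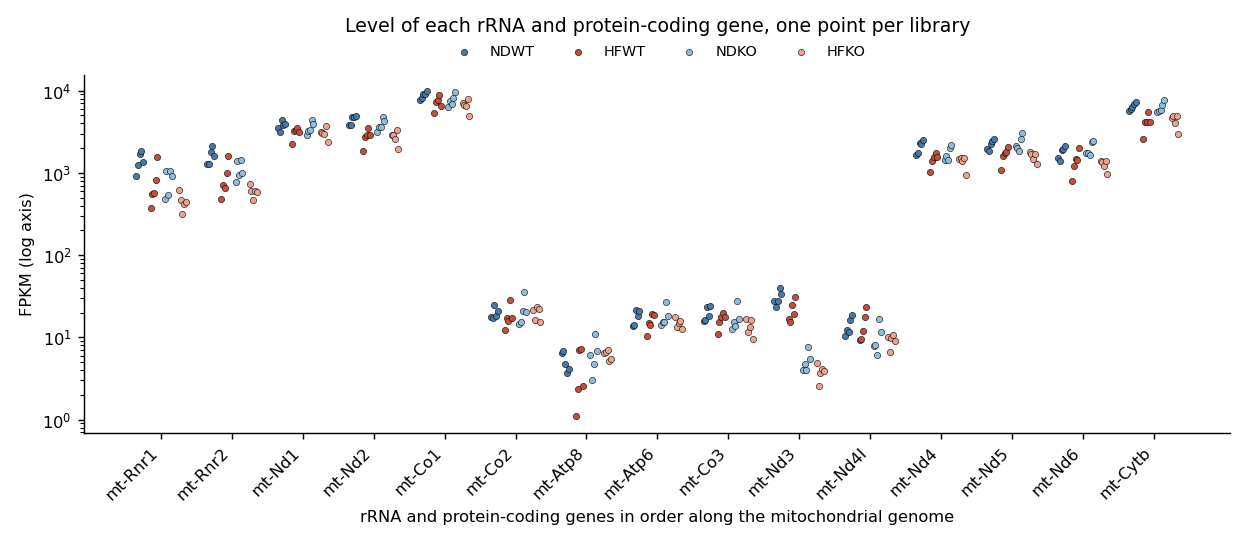
FPKM of the 2 rRNA and 13 protein-coding genes on a log axis, in order along the mitochondrial genome, with 1 point per library and 4 groups of 5 libraries. The 6 adjacent genes from mt-Co2 to mt-Nd4l lie between 1.09 and 40.2 FPKM, whereas the other 7 protein-coding genes lie between 801.5 and 9805 FPKM.

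Of the 22 tRNA genes, 3 were at 0 in all 20 libraries (mt-Tf, mt-Td and mt-Tk), which allows up to 3 fragments per library, and 3 never exceeded 3 fragments (mt-Tv, mt-Ts1 and mt-Tt). The other 16 exceeded 3 fragments in at least 1 library, and 10 of them did so in every library. The level of mt-Tp, the proline tRNA, averaged 835 FPKM, ahead of mt-Te at 261, mt-Tc at 158, mt-Tn at 137 and mt-Ty at 78.6 FPKM. Library inserts of 250 to 350 bases exceed the tRNA genes, which measured 59 to 75 bases, so that fragments counted there were not told apart from longer RNAs that contain the tRNA.

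CDAHFD was set against control diet in each genotype to learn how the mitochondrial transcripts stood in the fatty, fibrotic liver. Fragments on the 13 protein-coding genes made up 3.24, 3.29, 3.91, 3.94 and 4.16% of all assigned fragments in NDWT and 1.91, 2.77, 2.92, 3.35 and 2.77% in HFWT. In NDKO they made up 2.90, 3.18, 3.04, 3.82 and 4.19%, and in HFKO 2.84, 2.80, 2.56, 3.08 and 1.95%. The groups overlapped between the diets in both genotypes, by 1 CDAHFD library in WT. The means were 3.70% ± 0.417 in NDWT, 2.74% ± 0.522 in HFWT, 3.42% ± 0.553 in NDKO and 2.65% ± 0.430 in HFKO (SD, n = 5). The rRNA genes held 0.292% to 0.508% in NDWT, 0.111% to 0.408% in HFWT, 0.169% to 0.328% in NDKO and 0.104% to 0.176% in HFKO. The highest HFWT value was that of replicate 5, and the other 4 HFWT libraries reached at most 0.234%. The tRNA genes held 0.0119% to 0.0196%, 0.00635% to 0.0130%, 0.00818% to 0.0153% and 0.00664% to 0.00928% in the same order of groups.

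**Figure D2:**
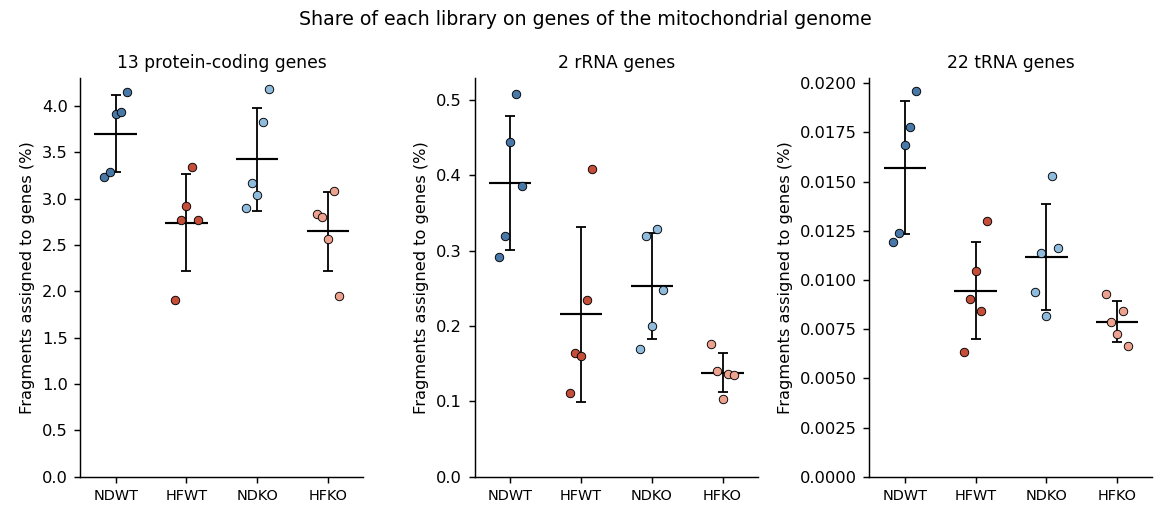
Percent of all assigned fragments on the 13 protein-coding, 2 rRNA and 22 tRNA genes of the mitochondrial genome, with 1 point per library, the mean as a line and the SD as a bar for 4 groups of 5. In each class the mean was lower in HFWT (2.74% for protein-coding genes) than in NDWT (3.70%). It was also lower in HFKO (2.65%) than in NDKO (3.42%), and points of the diets overlapped in each class and genotype.

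Hepatocyte marker sums followed these shares in some libraries and not in others. HFWT replicate 1 had the lowest share on mitochondrial mRNA genes of all libraries (1.91%) and the lowest hepatocyte marker sum (25549 FPKM). HFKO replicate 5 had the lowest of its group in both (1.95% and 33801 FPKM). Median hepatocyte sums were lower on CDAHFD in both genotypes. They were 37275 FPKM in NDWT and 33167 in HFWT, and 42585 in NDKO and 40166 in HFKO. HFKO replicate 4 had the highest hepatocyte marker sum of all libraries (44836 FPKM) and rank 11 from the lowest in mitochondrial mRNA share (3.08%). The library with the most RNA without a poly(A) tail, HFWT replicate 5, had a mitochondrial mRNA share of 2.77%, within the range of its group. On CDAHFD 2 of 8 hepatocyte markers were lower in WT and 3 of 8 in null mice, where 4.62% and 4.00% of all tested genes were lower. Of the 8 macrophage markers, 7 were higher and 1 lower in both. All 8 stellate cell and myofibroblast markers, 7 of 8 lymphocyte markers and all 5 cholangiocyte markers tested were higher in both, where 44.1% of all tested genes were higher in WT and 41.9% in null mice. Summed levels ranged from 122 to 205 FPKM on control diet and from 680 to 1504 FPKM on CDAHFD for the macrophage markers, from 9.29 to 14.4 and from 110 to 278 FPKM for the stellate markers, from 2.24 to 6.24 and from 7.68 to 18.7 FPKM for the lymphocyte markers, and from 12.4 to 18.0 and from 182 to 488 FPKM for the cholangiocyte markers. The part of these cells in the mitochondrial results was not tested, and in bulk tissue fewer hepatocytes and less mitochondrial RNA per cell cannot be told apart.

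For single genes, values were tested with limma across the 14524 genes above 0.5 FPKM in at least 5 libraries, and a gene was called at an FDR under 0.05 and an absolute log2FC above 0.58. All 13 protein-coding, both rRNA and 16 of the 22 tRNA genes passed this filter, so 31 of 37 were tested. On CDAHFD 11 of the 31 were lower and none higher in WT mice, where 4.62% of all tested genes were lower. In null mice 7 were lower, where 4.00% of all tested genes were lower, and 1 was higher, where 41.9% were higher. The median log2FC over the 13 protein-coding genes was −0.41 in WT and −0.32 in null mice, against 0.53 and 0.50 over all tested genes. In rank, the protein-coding members lay between the 4.31 and 17.8 percentiles of all log2FC in WT mice and between the 4.45 and 20.9 percentiles in null mice. Median of ratios scaling, which sets the median gene near 0, took the median of the 13 genes to −0.97 and −0.85 and called 26 of the 31 genes in WT, all lower, and 20 in null mice, of which 19 were lower. Under that scaling 15.4% of all tested genes were lower and 22.7% higher in WT, and 13.6% and 22.2% in null mice.

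**Figure D3:**
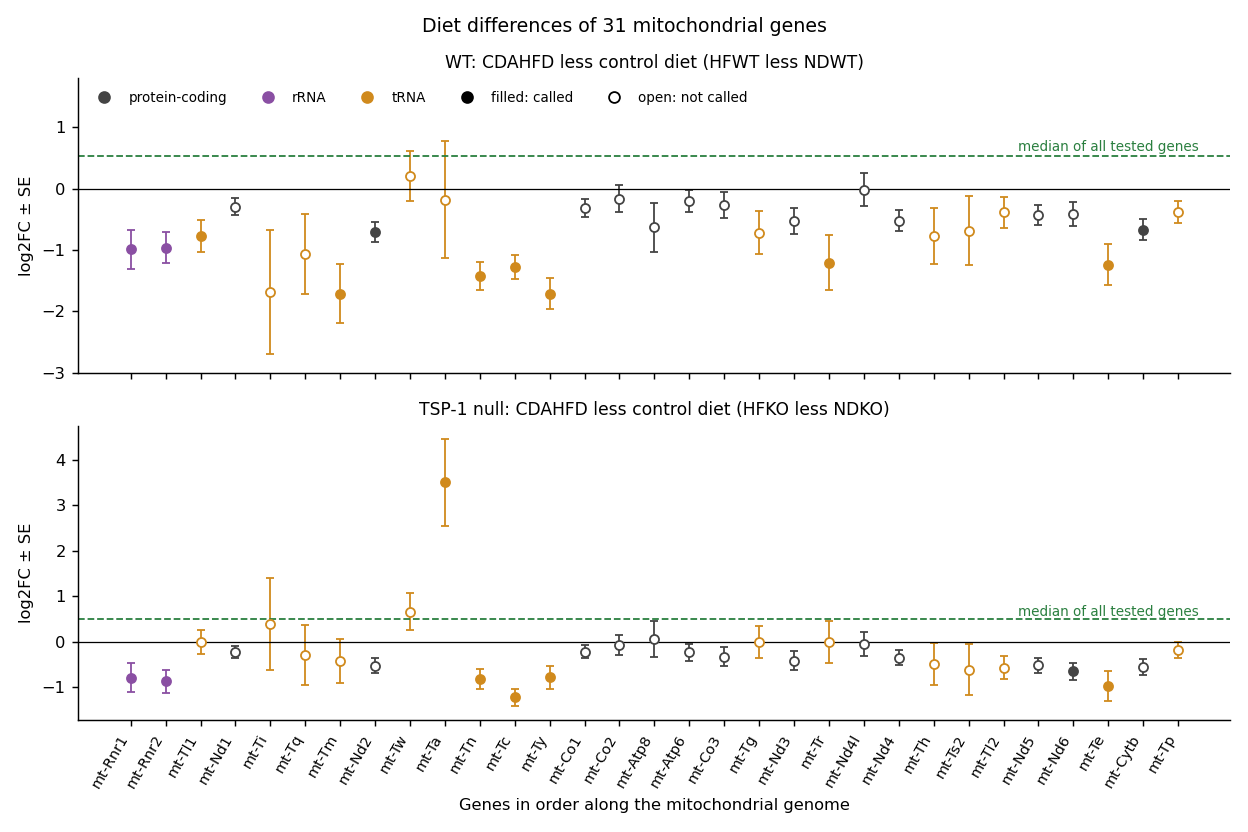
Log2FC on the log2(FPKM + 0.1) scale, CDAHFD less control diet, with its SE for the 31 tested mitochondrial genes in genome order, filled where the gene was called and open where it was not. The dashed line is the median of all 14524 tested genes, 0.53 in WT and 0.50 in null mice, and the rRNA genes and the row mt-Tn, mt-Tc and mt-Ty are filled below 0 in both panels.

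Both rRNA genes were lower on CDAHFD in both genotypes. The FPKM of mt-Rnr1 was 907, 1247, 1692, 1840 and 1368 in NDWT and 377, 553, 578, 817 and 1581 in HFWT. In NDKO it was 478, 1046, 539, 1062 and 926, and in HFKO 626, 472, 317, 420 and 442. In WT 4 of 5 CDAHFD libraries lay below every control library and HFWT replicate 5 lay among the control values, while in null mice the groups overlapped. The log2FC was −0.99 in WT (SE 0.32, limma FDR 0.00884) and −0.79 in null mice (SE 0.32, FDR 0.0332). Without HFWT replicate 5 it was −1.29 in WT (FDR 0.000371). The call in null mice was lost without the filter on low values and when any 1 of 6 libraries was left out, namely NDKO replicates 2, 4 and 5 or HFKO replicates 3, 4 and 5 (log2FC −0.96 to −0.66 over all 20 such fits).

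The FPKM of mt-Rnr2 was 1297, 1270, 1789, 2100 and 1612 in NDWT and 476, 707, 665, 986 and 1627 in HFWT. In null mice mt-Rnr2 was at 779, 1384, 943, 1435 and 1011 in NDKO and at 733, 606, 463, 608 and 586 in HFKO, so that every HFKO library lay below every NDKO library. Such a separation downwards was found for 5.03% of all tested genes. The log2FC of mt-Rnr2 was −0.96 in WT (SE 0.25, limma FDR 0.00208, and −1.21 without HFWT replicate 5) and −0.87 in null mice (SE 0.25, FDR 0.00466). Quantile normalization left the direction of both rRNA genes but ended all 4 calls, with log2FC of −0.53 and −0.46 in WT and −0.42 and −0.27 in null mice.

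The rRNA genes also stood lower in relation to the mRNA genes of the same library. There were 9.02 to 12.9 rRNA fragments per 100 mitochondrial mRNA fragments in NDWT and 5.50 to 6.99 in HFWT without replicate 5, which held 14.7. In NDKO the ratio was 5.83 to 10.0 and in HFKO 4.04 to 6.91. The ratio differed between the control groups as well, with a median of 9.74 in NDWT and 6.60 in NDKO. The libraries were selected for poly(A) tails, and the RNAs without a tail summed to 9340 to 46875 FPKM in NDWT, 13944 to 24456 in HFWT without replicate 5, 5618 to 39242 in NDKO and 17952 to 39670 in HFKO. The part of the selection in this ratio was not tested.

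Among the protein-coding genes, mt-Nd2 and mt-Cytb were called lower in WT mice and mt-Nd6 in null mice. The FPKM of mt-Nd2, a membrane subunit of complex I, was 3847, 3810, 4801, 4819 and 4904 in NDWT and 1831, 2774, 2861, 3485 and 2886 in HFWT. The groups did not overlap, as for 5.70% of all tested genes in the same direction, and the log2FC was −0.70 (SE 0.17, limma FDR 0.000824). In null mice mt-Nd2 was at 3120 to 4805 FPKM on control diet and 1938 to 3312 on CDAHFD, with a log2FC of −0.52 (FDR 0.00815) that did not reach the fold change threshold. The interaction of diet and genotype for mt-Nd2 was 0.18 (SE 0.23, FDR 0.785).

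The FPKM of mt-Cytb was 5734, 5970, 6352, 6828 and 7245 in NDWT and 2598, 4223, 4200, 5500 and 4162 in HFWT. In NDKO it was 5527, 5623, 5766, 6776 and 7704 and in HFKO 4711, 4927, 4105, 4922 and 2969. All CDAHFD libraries lay below all control libraries in both genotypes. The log2FC was −0.67 in WT (SE 0.17, limma FDR 0.00162) and −0.55 in null mice (SE 0.17, FDR 0.00729), and only the former passed the fold change threshold. Without HFWT replicate 1 the WT call ended for mt-Cytb (log2FC −0.51) and for mt-Nd2 (−0.56), as under quantile normalization (−0.32 and −0.26).

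The complex I subunit mt-Nd6 is the single protein-coding gene on the minus strand. It was at 1500, 1414, 1892, 1980 and 2109 FPKM in NDWT, 802, 1219, 1458, 1427 and 2019 in HFWT, 1760, 1733, 1637, 2412 and 2473 in NDKO and 1412, 1361, 1198, 1399 and 977 in HFKO. Every HFKO library lay below every NDKO library, and in WT the groups overlapped. The log2FC was −0.65 in null mice (SE 0.20, limma FDR 0.00586) and −0.41 in WT (SE 0.20, FDR 0.0681), with an interaction of −0.24 (SE 0.28, FDR 0.738). Without HFWT replicate 5, the highest of its group, mt-Nd6 had a log2FC of −0.56 in WT (FDR 0.0110), below the fold change threshold, and an interaction of −0.09. The call ended under quantile normalization (−0.20) and without NDKO replicate 4 or 5 or HFKO replicate 5, with log2FC from −0.72 to −0.56 over the 20 such fits.

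The other 4 highly measured mRNA genes were not called in either genotype on the FPKM scale, and median of ratios scaling called all 4 lower in both, with log2FC from −1.08 to −0.85 in WT and from −1.05 to −0.75 in null mice. For mt-Nd5, a pump subunit of complex I, FPKM was 1852 to 2582 in NDWT and 1076 to 2069 in HFWT (log2FC −0.43, SE 0.16), and 1832 to 3058 in NDKO and 1302 to 1804 in HFKO without overlap (−0.51, SE 0.16). Its limma FDR was 0.0235 and 0.00918, under the threshold, with a fold change that was too small for a call. For mt-Nd4, also a pump subunit, the log2FC was −0.52 in WT (SE 0.17, FDR 0.00887) and −0.35 in null mice (SE 0.17, FDR 0.0704). Values for mt-Nd1 were −0.29 (SE 0.14, FDR 0.0638) and −0.23 (SE 0.14, FDR 0.152), and those for mt-Co1 −0.31 (SE 0.15, FDR 0.0663) and −0.21 (SE 0.15, FDR 0.204). Under quantile normalization mt-Nd1 (0.10), mt-Co1 (0.02) and mt-Nd6 (0.09) turned above 0 in WT, as did mt-Nd1 (0.34) and mt-Nd4 (0.19) in null mice, and under median of ratios scaling all 13 were below 0 in both genotypes.

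The makeup of the mitochondrial mRNA pool shifted accordingly. Of all mitochondrial mRNA fragments, mt-Co1 held 36.1% to 38.2% in NDWT and 35.9% to 43.1% in HFWT, and 32.7% to 36.5% in NDKO and 37.4% to 39.6% in HFKO. The share of mt-Nd2 was 12.0% to 12.7% in NDWT and 9.94% to 10.8% in HFWT, with means of 11.8% ± 0.954 in NDKO and 10.6% ± 0.352 in HFKO. The share of mt-Cytb was 18.6% to 20.8% in NDWT, 15.5% to 18.8% in HFWT, 20.3% to 21.8% in NDKO and 17.4% to 20.1% in HFKO. Shares of mt-Nd2 did not overlap between the diets in WT, and shares of mt-Co1, mt-Cytb and mt-Nd6 did not overlap in null mice. For mt-Nd6 they were 2.79% to 3.27% in NDKO and 2.35% to 2.60% in HFKO. HFWT replicate 5 had the lowest share of mt-Co1 in its group (35.9%) and the highest shares of mt-Nd5 (13.6%) and mt-Nd6 (3.78%), where the group medians were 10.6% and 2.29%.

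The 6 genes from mt-Co2 to mt-Nd4l were not called between the diets on the FPKM scale. Their log2FC lay between −0.63 for mt-Atp8 and −0.02 for mt-Nd4l in WT mice, and between −0.41 for mt-Nd3 and 0.07 for mt-Atp8 in null mice. Levels of mt-Co2 were 19.8 ± 3.20 FPKM in NDWT, 18.2 ± 6.06 in HFWT, 21.4 ± 8.55 in NDKO and 19.7 ± 3.55 in HFKO. For mt-Co3 they were 19.4 ± 3.83, 16.2 ± 3.34, 17.2 ± 6.10 and 13.5 ± 3.12, and for mt-Atp6 17.7 ± 3.60, 15.5 ± 3.64, 17.9 ± 5.19 and 14.9 ± 2.01 FPKM in the same order. For mt-Nd4l they were 13.9 ± 3.58, 14.3 ± 6.01, 10.1 ± 4.28 and 9.24 ± 1.55 FPKM. The level of mt-Atp8 rested on 4 to 36 fragments per library and was 5.17 ± 1.39, 4.02 ± 2.83, 6.35 ± 3.00 and 6.14 ± 0.804 FPKM. Apart from mt-Nd3 in WT, the differences between the diets were smaller than the larger SD of the groups, and mt-Atp8 and mt-Atp6 share 43 bases, in which fragments cannot be told apart. Without HFWT replicate 5, mt-Nd3 was called lower in WT (log2FC −0.67, limma FDR 0.00626), against −0.53 (FDR 0.0278) with it. Under quantile normalization mt-Atp6, mt-Co3 and mt-Nd3 were called lower in both genotypes (log2FC −0.59, −0.63 and −0.82 in WT) and mt-Atp8 in WT (−1.34). Median of ratios scaling called mt-Co2 (−0.72 and −0.59), mt-Atp6 (−0.76 and −0.76), mt-Co3 (−0.82 and −0.85) and mt-Nd3 (−1.09 and −0.94) lower in both genotypes and mt-Atp8 in WT (−1.17), whereas mt-Nd4l (−0.57 and −0.58) was not called.

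The tRNA genes lower on CDAHFD in both genotypes all lay on the minus strand. Of the 7 minus strand tRNA genes tested, 4 were lower in each genotype, mt-Tn, mt-Tc, mt-Ty and mt-Te, whereas of the 9 on the plus strand 3 were lower in WT and none in null mice. Over all tested genes 4.62% were lower in WT and 4.00% in null mice. On mt-Tg and mt-Tr of the plus strand no fragment was counted in null mice, so neither could be called there. Of these, mt-Tr was among the 3 lower in WT. The difference between the strands was not tested. The FPKM of mt-Tc was 210, 187, 277, 230 and 367 in NDWT, 87.0, 92.5, 120, 97.2 and 120 in HFWT, 137, 199, 141, 253 and 228 in NDKO and 104, 74.6, 61.5, 73.6 and 92.2 in HFKO. All CDAHFD libraries lay below all control libraries in both genotypes. The log2FC was −1.27 in WT (SE 0.19, limma FDR 8.82e-06) and −1.22 in null mice (SE 0.19), with FDR 1.56e-05 in the latter, and the interaction was 0.05 (SE 0.28, FDR 0.958).

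Its neighbours showed a larger value in WT than in null mice, a difference that did not pass the test. The FPKM of mt-Ty was 108, 129, 171, 147 and 182 in NDWT, 33.3, 49.1, 62.6, 24.7 and 66.5 in HFWT, 77.4, 92.6, 47.1, 85.0 and 76.0 in NDKO and 54.8, 35.3, 42.3, 56.6 and 32.1 in HFKO. In WT the groups did not overlap, and in null mice NDKO replicate 3 lay among the CDAHFD values. The log2FC was −1.71 in WT (SE 0.25, limma FDR 5.10e-06) and −0.77 in null mice (SE 0.25, FDR 0.00967), with an interaction of 0.94 (SE 0.35, unadjusted p = 0.0159, limma FDR 0.204). The FPKM of mt-Tn was 194, 193, 240, 179 and 253 in NDWT, 54.2, 84.5, 99.3, 94.6 and 66.8 in HFWT, 104, 148, 111, 262 and 203 in NDKO and 106, 73.8, 69.7, 86.2 and 115 in HFKO. For mt-Tn the WT groups were separate and the TSP-1 null groups overlapped by 2 HFKO libraries. The log2FC was −1.43 (SE 0.23, FDR 1.35e-05) and −0.81 (SE 0.23, FDR 0.00341), and the interaction was 0.62 (SE 0.32, FDR 0.380).

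The FPKM of mt-Te was 284, 276, 414, 448 and 512 in NDWT and 62.2, 135, 184, 159 and 413 in HFWT. In NDKO it was 348, 306, 202, 400 and 292, and in HFKO 168, 198, 142, 146 and 130. HFWT replicate 5 was again among the control values, and the other 4 HFWT libraries and all HFKO libraries lay below all control libraries of their genotype. The log2FC of mt-Te was −1.24 in WT (SE 0.33, limma FDR 0.00247, and −1.58 without HFWT replicate 5) and −0.96 in null mice (SE 0.33, FDR 0.0143). Calls of mt-Tn, mt-Tc, mt-Ty and mt-Te held in both genotypes under all 12 processing alternatives and with any 1 library left out.

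**Figure D4:**
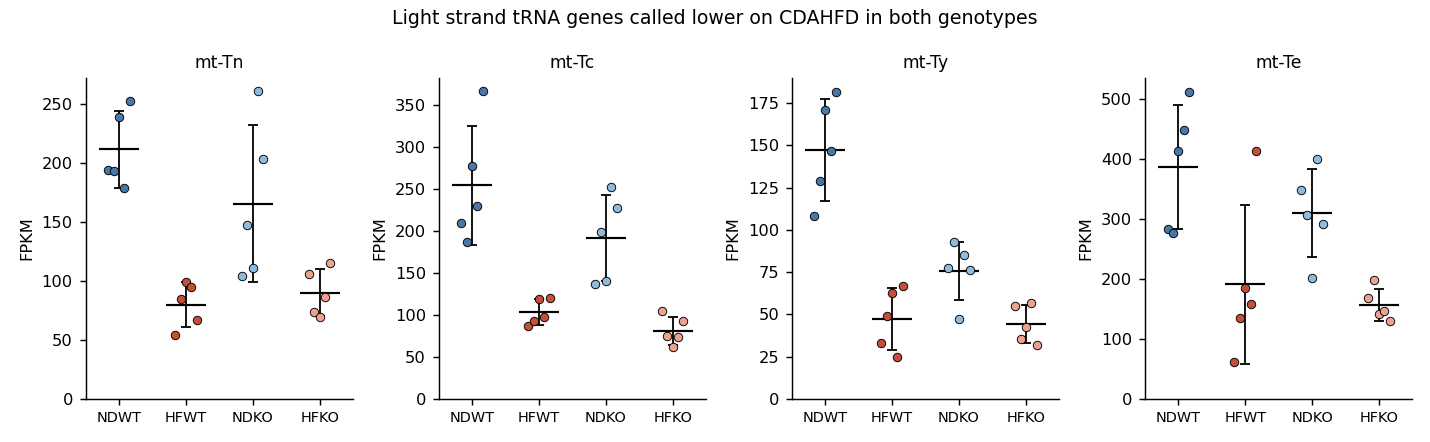
FPKM of mt-Tn, mt-Tc, mt-Ty and mt-Te by group, with 1 point per library in replicate order from left to right, the mean as a line and the SD as a bar (n = 5). For mt-Tc all CDAHFD libraries (61.5 to 120) lie below all control libraries (137 to 367), and for mt-Te HFWT replicate 5 (413) lies far above the other HFWT libraries.

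Of the plus strand tRNA genes, mt-Tm (methionine), mt-Tl1 (leucine) and mt-Tr were lower on CDAHFD in WT mice. There were 30, 31, 34, 48 and 42 fragments on mt-Tm in NDWT and 6, 9, 22, 7 and 19 in HFWT, without overlap (log2FC −1.72, SE 0.48, limma FDR 0.00342). In NDKO mt-Tm held 12, 24, 3, 5 and 10 fragments and in HFKO 14, 7, 6, 7 and 2 (log2FC −0.41, SE 0.48, FDR 0.452), and its interaction was 1.30 (SE 0.68, FDR 0.381). The level of mt-Tl1 was 52.3 ± 13.5 FPKM in NDWT, 30.3 ± 7.01 in HFWT, 32.3 ± 13.1 in NDKO and 31.3 ± 9.17 in HFKO. Its log2FC was −0.77 in WT (SE 0.27, FDR 0.0138) and 0.00 in null mice (SE 0.27), with an interaction of 0.77 (SE 0.38, FDR 0.345). The values of mt-Tr were 4 to 14 fragments (NDWT) against 1 to 14 (HFWT), and its call (log2FC −1.20, SE 0.45, limma FDR 0.0222) ended without NDWT replicate 4 or HFWT replicate 1, 3 or 4 and when the fit held the 2 groups alone, with log2FC from −1.88 to −0.76 over all alternatives.

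The 1 tRNA gene called higher was mt-Ta, the alanine tRNA, in null mice. It held 0, 0, 1, 0 and 8 fragments in NDKO and 7, 6, 3, 8 and 3 in HFKO, and 1, 1, 6, 5 and 5 in NDWT and 4, 1, 10, 2 and 1 in HFWT. The groups overlapped, and NDKO replicate 5 had as many fragments as the highest HFKO library. The log2FC was 3.50 (SE 0.95, limma FDR 0.00279) and moved between 1.58 and 5.49 with the pseudocount and the other alternatives, so its size is poorly fixed at this depth. The other 8 tested tRNA genes, mt-Tp among them (named here after its level was seen), were not called between the diets, with log2FC between −1.68 and 0.20 in WT and between −0.61 and 0.66 in null mice.

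Whether the diet response differed between the genotypes was tested for each gene as an interaction. None of the 31 mitochondrial genes was called by limma, where 0.647% of all tested genes were, and 2 had an unadjusted p under 0.05, mt-Ty and mt-Ta. Limma voom on the recovered fragments also called 0, with 2 at an unadjusted p under 0.05. Without NDKO replicate 5, in which mt-Ta held 8 fragments, 1 gene was called, mt-Ta (FDR 0.0353). The interaction was above 0 for 8 of the 13 protein-coding genes (median log2FC 0.10) and for both rRNA genes (0.21 and 0.09). It was above 0 for 13 of the 14 tested tRNA genes other than mt-Tg and mt-Tr, which had no fragment in null mice. Over all tested genes 54.7% of the interactions were below 0.

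Libraries labelled TSP-1 null were set against WT on each diet to learn how the labelled genotypes differed. The null mice were of a purchased line, so the knockout and other differences between the lines cannot be told apart. On control diet 6 of the 31 genes were lower and none higher, where 3.03% of all tested genes were lower and 1.74% higher, and on CDAHFD 3 were lower, where 0.330% were. The same 6 and 3 genes did not overlap between the genotypes, against 6.69% and 4.13% of all tested genes in this direction. Both counts include mt-Tg and mt-Tr, which had no fragment in any library labelled TSP-1 null. These genes passed the filter through WT libraries alone and could differ in this direction only, so the shares over all tested genes are no fair measure for them. The 7 highly measured mRNA genes were not called on either diet, with log2FC between −0.26 for mt-Nd4 and 0.17 for mt-Nd6 on control diet and between −0.11 for mt-Co1 and 0.08 for mt-Cytb on CDAHFD. The rRNA genes were not called either. The log2FC of mt-Rnr1 was −0.84 on control diet (SE 0.32, limma FDR 0.0903) and −0.63 on CDAHFD (SE 0.32, FDR 0.314), and that of mt-Rnr2 −0.55 (SE 0.25, FDR 0.163) and −0.46 (SE 0.25, FDR 0.359). Without HFWT replicate 5, mt-Rnr1 was called on control diet at the same log2FC (FDR 0.0381), and on CDAHFD the log2FC was −0.33 for mt-Rnr1 (FDR 0.529) and −0.21 for mt-Rnr2 (FDR 0.611).

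The 3 genes lower on both diets, mt-Tg, mt-Nd3 and mt-Tr, are neighbours between 9391 and 9875 of the mitochondrial genome. No fragment was counted on mt-Tg or mt-Tr in any of the 10 libraries labelled TSP-1 null. On mt-Tg there were 15, 3, 7, 17 and 22 fragments in NDWT and 8, 5, 10, 6 and 4 in HFWT. On mt-Tr there were 14, 4, 10, 12 and 10 in NDWT and 1, 7, 3, 3 and 14 in HFWT. With a floor of 3 fragments per library, mt-Tg was at least 4.28-fold lower on control diet and at least 2.16-fold lower on CDAHFD, and mt-Tr at least 3.36-fold and 1.91-fold lower. Between them mt-Nd3 held 227, 135, 170, 240 and 235 fragments in NDWT, 104, 102, 176, 134 and 185 in HFWT, 29, 38, 26, 42 and 38 in NDKO and 37, 14, 23, 28 and 26 in HFKO. No library labelled TSP-1 null reached any labelled WT, and the log2FC of mt-Nd3 was −2.56 on control diet (SE 0.21, limma FDR 2.12e-07) and −2.44 on CDAHFD (SE 0.21, FDR 5.19e-07).

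The nuclear copy of mt-Nd3 on chromosome 1, Gm28438 (24612775 to 24613119, minus strand), is not a row of the table used here. Over its 345 bases it differs from mt-Nd3 by 1 base, T3C counted from the first base of mt-Nd3, which is position 9461 of the mitochondrial chromosome. The first 60 bases of each, in GENCODE M21 on GRCm38, are shown with the differing base in capitals.
mt-Nd3 (9459 to 9806, plus strand): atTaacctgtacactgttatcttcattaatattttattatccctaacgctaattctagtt
Gm28438 (chromosome 1, minus strand): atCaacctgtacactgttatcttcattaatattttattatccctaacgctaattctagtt
Gaps of 69 and 74 bases without a gene model lie on either side of Gm28438, where the mitochondrial genome has mt-Tg and mt-Tr. Of the 7 copies on chromosome 1, 1 is in the table, Gm10222, which repeats mt-Nd4l over all 264 of its 31-base words. It held 59, 38, 62, 56 and 78 fragments in NDWT, 36, 41, 41, 54 and 76 in HFWT, 108, 148, 96, 118 and 205 in NDKO and 138, 84, 59, 121 and 98 in HFKO. The groups did not overlap on control diet and overlapped on CDAHFD. It was higher in the libraries labelled TSP-1 null, by a log2FC of 1.13 on control diet (SE 0.23, limma FDR 0.00368) and of 1.00 on CDAHFD (SE 0.23, FDR 0.0401). The call on CDAHFD ended in 9 of the 20 fits without 1 library. The log2FC of mt-Nd4l itself was −0.51 (SE 0.27, FDR 0.231) and −0.54 (SE 0.27, FDR 0.306). The reads themselves were not analysed here, so which base the mice carry at position 9461 was not read, and its part in these counts was not tested.

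**Figure D5:**
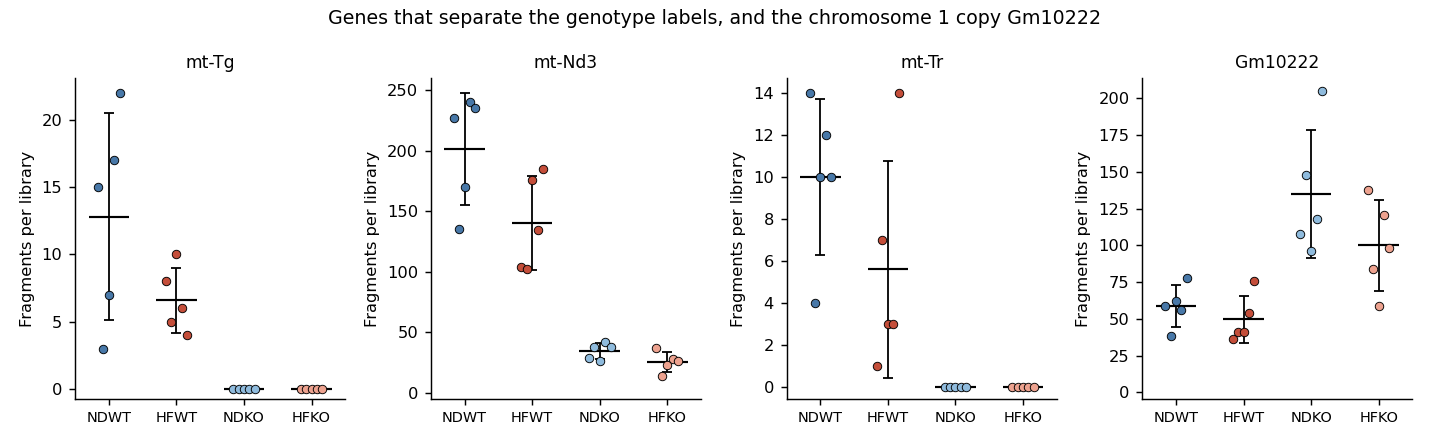
Fragments per library, not scaled for depth, on mt-Tg, mt-Nd3, mt-Tr and the chromosome 1 gene model Gm10222 in 4 groups of 5 libraries, with the mean as a line and the SD as a bar. The libraries labelled TSP-1 null hold 14 to 42 fragments on mt-Nd3 (102 to 240 in those labelled WT) and 0 on both tRNA genes, and they hold 59 to 205 on Gm10222 against 36 to 78.

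On control diet 3 further tRNA genes were lower in the libraries labelled TSP-1 null. For mt-Tm, with the fragments given above, the groups did not overlap, and the log2FC was −2.13 (SE 0.48, limma FDR 0.00659). For mt-Ty the groups did not overlap either (log2FC −0.97, SE 0.25, FDR 0.0146). The isoleucine tRNA mt-Ti held 13, 6, 10, 28 and 33 fragments in NDWT and 5, 0, 1, 5 and 3 in NDKO (log2FC −3.18, SE 1.01, FDR 0.0423), and its call ended in 6 of 12 alternatives and in 8 of the 20 fits without 1 library. On CDAHFD none of them was called, with log2FC of −0.83 for mt-Tm, −0.04 for mt-Ty and −1.10 for mt-Ti. The diet by genotype interaction for each is the one tested above, and for mt-Ti it was 2.08 (SE 1.43, FDR 0.532).

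The nuclear genes that maintain, transcribe and process the mitochondrial genome were read beside it, as a list of 50 genes that were all measured. On CDAHFD 5 were higher and 1 lower in WT mice, and 4 higher and 3 lower in null mice, against 44.1% higher and 4.62% lower over all tested genes in WT and 41.9% and 4.00% in null mice. The median log2FC of the list was 0.14 and 0.12. The lower gene in both was Hsd17b10, a subunit of the mitochondrial RNase P that cuts tRNAs at their 5′ ends and also an enzyme of isoleucine breakdown. It was at 158 ± 24.8 FPKM in NDWT, 78.4 ± 10.4 in HFWT, 216 ± 28.8 in NDKO and 67.1 ± 11.2 in HFKO, with log2FC −1.01 (SE 0.13, limma FDR 6.47e-07) and −1.69 (SE 0.13, FDR 7.30e-10). In null mice the transcription factor of mitochondria Tfb2m (−0.58, FDR 4.00e-06) and the protease subunit Clpx (−0.93, FDR 1.07e-05) were lower as well.

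Higher in WT were the transcription factor Nrf1 (log2FC 0.69, limma FDR 1.11e-06), the rRNA methyltransferases Mrm3 (0.64, FDR 4.01e-06) and Mrm1 (0.68, FDR 0.000399) and the coactivator Pprc1 (0.99, FDR 0.000310). Higher in null mice were the protease Lonp1 (0.64, FDR 9.79e-08), Fastkd3 (0.75, FDR 1.77e-05), Pprc1 (0.62, FDR 0.0128) and Mterf2 (0.82, FDR 0.0262). Tfam, which packs mitochondrial DNA and starts its transcription, had a log2FC of −0.35 in WT (FDR 0.000306) and −0.12 in null mice (FDR 0.156), below the fold change threshold. The polymerase Polrmt had 0.38 (FDR 0.00670) and 0.33 (FDR 0.0173), and the mRNA stabilizing factor Lrpprc −0.23 (FDR 0.00641) and −0.05 (FDR 0.548). The coactivator Ppargc1a was higher in WT (0.81, SE 0.24, FDR 0.00597) and not called in null mice (−0.31, SE 0.24, FDR 0.257), with an interaction of −1.12 (SE 0.34, FDR 0.124). Relative to the median of all tested genes, which lay 0.53 and 0.50 above 0, the list's median was −0.39 and −0.38.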

How the data were processed

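RNA was measured in 20 livers, 1 library per mouse. The authors aligned paired reads and counted fragments per gene in the QuickRNASeq pipeline, and the submitters' processing notes name STAR 2.5.2, featureCounts, Subread 1.5.1 and the build GRCh38. The coordinates in the deposited table are those of mouse GRCm38, where all 37 mitochondrial genes had the same start and end as in GENCODE M21. The setting for strand and the treatment of reads with several matches are not given in the sources used here. The liver lobe is the right medial 1 per the labels and the right lateral 1 in the study's methods. The deposited values are FPKM, calculated by the authors without further normalization between libraries.

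FPKM times gene length and library total gave whole fragments (within 0.1) for 99.99% to 100% of the values checked in each library, of 15641545 to 23276322 fragments. Groups followed the labels. In all 40 pairs of libraries within a group the counts differed by more than sampling noise. Log2(FPKM + 0.1) of the 14524 genes above 0.5 FPKM in at least 5 libraries was fitted with limma 3.58.1 in R 4.3.3 (1 mean per group, eBayes with trend). The study's methods name limma, the filter value and both thresholds, but not the scale or scaling of its input, so this fit may differ from that of the authors. FDR values are Benjamini-Hochberg adjusted over all 14524 genes and two-sided. Fold changes are on the log2(FPKM + 0.1) scale. For low genes, above all those with libraries at 0, the size of the change depends on the added 0.1. In null mice mt-Ta had a log2FC of 3.50, with mean FPKM of 1.30 in NDKO and 4.14 in HFKO. The fit was tested on simulated data. Sequences were compared as words of 31 bases with the GENCODE M21 transcripts. The members and gene lists were chosen with earlier results of these data known. Every protein-coding and rRNA gene is named, tRNA genes where called in at least 1 comparison, and of the nuclear list, per diet comparison, at most the 4 called genes with the lowest FDR in each direction with Tfam, Polrmt, Lrpprc and Ppargc1a. Of 13 RNAs listed as lacking a poly(A) tail 12 were in the table. Alternatives were other pseudocounts, filters, scalings, thresholds and fits, and leaving out each mouse.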

Additional observations from a re-analysis of the deposited data

Results flagged for a closer look

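Values of the 25 named mitochondrial genes and of the shares by class were checked for a library far from the other 4 of its group by Dixon's ratio, above 0.71 for 5 samples, in 112 groups of 5. Chance alone marks about 1 in 20 groups, and 6 were marked. The ratio of rRNA to mRNA fragments was 14.7 per 100 in HFWT replicate 5, against 5.50 to 6.99 in the other HFWT libraries (Dixon's ratio 0.838). The level of mt-Ta was 5.74 FPKM in NDKO replicate 5, from 8 fragments, against 0 to 0.775 FPKM in the other NDKO libraries (0.865). NDKO replicate 4 had 35.9 FPKM of mt-Co2, against 14.6 to 20.6 (0.715), and 27.8 FPKM of mt-Co3, against 12.7 to 16.7 (0.732). HFWT replicate 1 had 2272 FPKM of mt-Nd1, against 3149 to 3505 (0.711), and HFKO replicate 5 had 955 FPKM of mt-Nd4, against 1378 to 1534 (0.731).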

How the results depend on the processing

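Of the settings planned, 12 changed the processing and 20 left out 1 mouse each. The count of mitochondrial genes called between the diets moved with median of ratios scaling, to 26 in WT mice (11 on the FPKM scale) and 20 in TSP-1 null mice (8), and the median log2FC of the 13 protein-coding genes moved to −0.97 (from −0.41) and −0.85 (from −0.32). That scaling sets the median of all genes near 0, where it lay at 0.53 and 0.50, and the lower calls among all tested genes went from 4.62% to 15.4% in WT and from 4.00% to 13.6% in null mice. Under the other 11 settings the counts stayed within 1.5 times the reported ones. Counts of calls ranged from 8 to 14 in WT and from 6 to 11 in TSP-1 null mice when 1 mouse was left out, from 5 to 8 between genotypes on control diet, stayed at 3 on CDAHFD and ranged from 0 to 1 for the interaction. The corresponding medians of the protein-coding genes ranged from −0.52 to −0.22, −0.41 to −0.19, −0.16 to −0.01 and −0.18 to 0.04. As shares of the FPKM sum instead of fragments, which weights short genes more, the group medians of all mitochondrial genes were 7.91% in NDWT, 5.81% in HFWT, 6.67% in NDKO and 5.55% in HFKO, against 4.37%, 3.09%, 3.51% and 2.95%.

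With the replicate number as a block, 11 genes were called in WT, 8 in TSP-1 null mice, 5 between genotypes on control diet, 3 on CDAHFD and 0 for the interaction. The numbers do not pair the mice: over 30 pairs of groups and numbers the correlation of deviations was −0.133 to 0.0812, and 6 of 20 libraries were most like one of their own number. No called gene changed direction under any setting. Depth limits mt-Ta, mt-Ti, mt-Tg and mt-Tr, which rest on at most 33 fragments per library, and mt-Atp8.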

Other observations

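Between the genotypes, 2 of the 50 nuclear genes for mitochondrial DNA and RNA were called on control diet, where 1.74% of all tested genes were higher and 3.03% lower, so the count is close to that of all genes. Both are named here after their values were seen. Ppargc1a, a coactivator of mitochondrial genes, was at 1.16 ± 0.504 FPKM in NDWT and 2.84 ± 0.680 in NDKO (log2FC 1.28, SE 0.24, limma FDR 0.00219). Mgme1, a nuclease that trims mitochondrial DNA ends, was at 2.77 ± 0.275 FPKM in NDWT and 1.38 ± 0.180 in NDKO (log2FC −0.95, SE 0.12, FDR 8.01e-05). On CDAHFD Mgme1 was at 2.61 ± 0.516 in HFWT and 1.66 ± 0.127 in HFKO (log2FC −0.61, SE 0.12, FDR 0.0184), while Ppargc1a had a log2FC of 0.17 (FDR 0.755). For the interaction of diet and genotype 1 of the 50 genes was called, where 0.647% of all tested genes were, and it is given here after its values were seen. It was Mrm3, an rRNA methyltransferase (interaction −0.77, SE 0.13, limma FDR 0.0104), with 2.37 ± 0.247 FPKM in NDWT, 3.73 ± 0.279 in HFWT, 3.41 ± 0.454 in NDKO and 3.07 ± 0.163 in HFKO.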
